A study of Mus musculus with 4 samples.

Results

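Chemokine ligands are small secreted proteins that recruit leukocytes by binding G protein-coupled receptors on them, and 10 of their genes were followed here across the leukocytes of the mouse liver: Ccl3, Ccl4, Ccl5, Ccl6, Ccl9, Ccl24, Cxcl2, Cxcl10, Cxcl13 and Cxcl16. They were taken by symbol from the 27998 genes listed in each library, and all 10 were found. As background, Ccl3 and Ccl4 are inflammatory ligands that attract macrophages and lymphocytes, and Ccl5 is a product of cytotoxic lymphocytes. Ccl6 and Ccl9 are rodent ligands of Ccr1 made by myeloid cells. Ccl24 attracts eosinophils through Ccr3, and Cxcl2 attracts neutrophils through Cxcr2. Interferon-inducible Cxcl10 attracts activated T and NK cells through Cxcr3, Cxcl13 attracts B cells through Cxcr5, and Cxcl16, which is made as a membrane protein, attracts T and NKT cells through Cxcr6. Kupffer cells, macrophages that live in the liver sinusoids, are known as a source of several of these ligands.

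The 10 genes were read in 4 single-cell RNA libraries of hepatic CD45+ leukocytes from adult wild-type C57BL/6 mice, 2 of each group. The Exercise mice ran for 4 weeks on a treadmill driven at 12.5 m/min, for 60 min a day on 5 days of the week, and the Sedentary mice were placed on a stationary treadmill instead. The Exercise libraries came with serum alanine aminotransferase values at harvest of 26 and 59 U/L, the Sedentary ones with 33 and 56 U/L. Nothing in the labels says that the libraries of a group came from separate animals, so each p-value measures the spread between these libraries only, and sex and the number of animals per library are not given in the sources used here. The Exercise libraries held 10050976 and 14849778 UMIs (unique molecular identifiers, 1 per captured transcript) and the Sedentary libraries 10662091 and 11826183. After filtering, 14560 of 15383 barcodes were kept, and 125 barcode sequences occurred in more than 1 library. The cells were clustered without the chemokine ligand genes and named from fixed marker lists, so each class is called "like" its cell type. The sort was for CD45, a leukocyte antigen, yet 943 sinusoidal endothelial (LSEC)-like and 33 stellate-like cells were among those kept. A class was tested where each library had 20 or more of its cells, which left 12 classes. Levels are UMIs summed per library and class, divided by the class total and scaled to 1e6 (CPM).

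Kupffer-like cells (1275 and 1823 Exercise cells, 1469 and 1454 Sedentary cells) held most of the UMIs of 4 of the 10 genes in every library. The mean share over the 4 libraries was 89.3% for Cxcl13, 85.2% for Ccl24, 74.7% for Ccl6 and 56.6% for Cxcl16. For Cxcl2 the share was uneven, with 79.5% and 44.2% in Exercise and 56.3% and 44.1% in Sedentary, and for Ccl3 it was 58.8% and 49.0% in Exercise and 60.3% and 49.97% in Sedentary. Ccl4 was split between Kupffer-like cells (39.6%), plasmacytoid dendritic cell (pDC)-like cells (17.4%), other macrophage-like cells (12.0%) and NK or ILC-like cells (11.1%). Ccl5 was a lymphocyte transcript, with 37.0% in NK or ILC-like, 32.5% in Cxcr6+ T-like and 13.6% in naive or CD8 T-like cells. Ccl9 was mainly in classical monocyte-like cells (44.8%), followed by type 2 conventional dendritic cell (cDC2)-like cells (17.5%). Cxcl10 lay in Kupffer-like (37.3%), classical monocyte-like (25.2%) and LSEC-like cells (15.9%). A share follows the number of cells of a class as well as their level, and the levels in CPM give a different order.

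**Figure D1:**
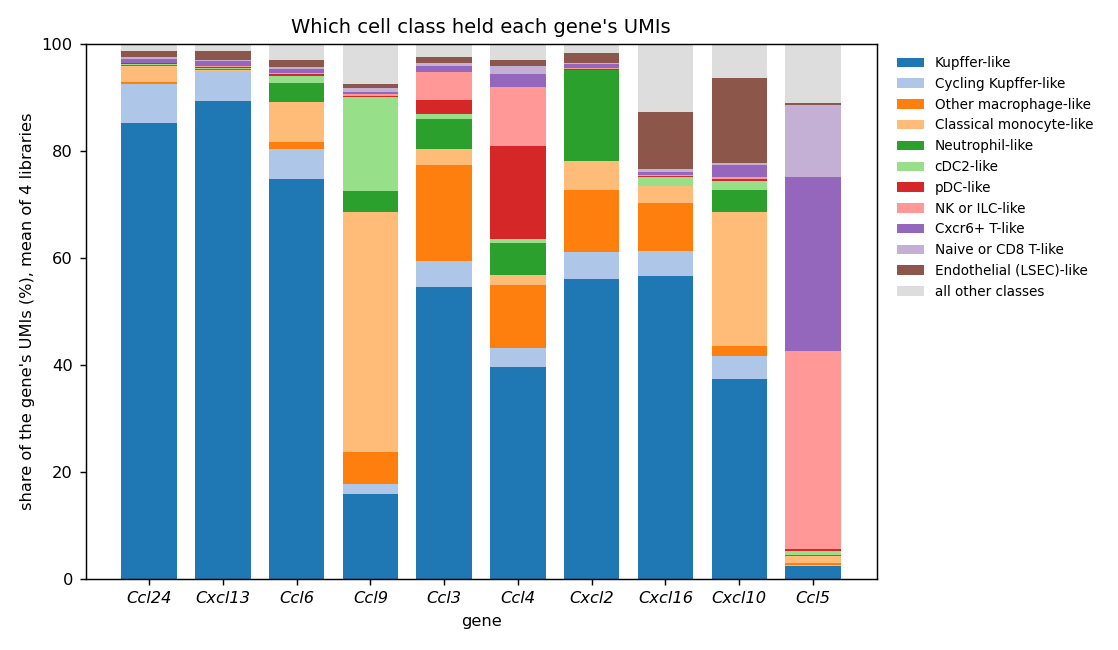
Share of each gene's UMIs (%, y axis) held by each cell class, as the mean of 4 libraries, for the 10 chemokine ligands (x axis). Kupffer-like cells make up 85.2% of the Ccl24 bar and 89.3% of the Cxcl13 bar, and lymphocyte classes most of the Ccl5 bar.

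By level, 5 of the 10 genes had a leading class whose lowest library stood above every library of the other 11 tested classes. Ccl5 averaged 23968 ± 1982 CPM in NK or ILC-like cells (SD, n = 4 libraries), and its next classes, naive or CD8 T-like and Cxcr6+ T-like cells, averaged 5345 ± 617 and 4164 ± 591 CPM and overlapped each other. Ccl6 averaged 1441 ± 286 CPM in classical monocyte-like cells. Kupffer-like cells at 960 ± 119 CPM and cycling Kupffer-like cells at 816 ± 107 CPM came next for Ccl6 and overlapped each other. Ccl9 averaged 669 ± 104 CPM in classical monocyte-like and 261 ± 20.9 CPM in cDC2-like cells, which did not overlap. Ccl3 at 814 ± 493 CPM and Cxcl16 at 816 ± 134 CPM led in other macrophage-like cells, a class of 298 cells named from a marker list that holds Cx3cr1 and Ms4a7. Genes of the Kupffer marker list, which holds C1qa, C1qb and C1qc as well as Clec4f, Timd4 and Cd5l, summed to 17757 to 23975 CPM in its clusters. In the Kupffer-like clusters the list summed to 24031 to 42461 CPM. A sum does not tell which genes of the list were present. For Cxcl16 the LSEC-like class followed at 415 ± 55.4 CPM and Kupffer-like cells at 266 ± 17.6 CPM.

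The leading class of the other 5 genes overlapped another class. Ccl24 averaged 696 ± 94.8 CPM in Kupffer-like and 674 ± 47.6 CPM in cycling Kupffer-like cells. Cxcl13 averaged 298 ± 30.3 CPM in Kupffer-like and 208 ± 105 CPM in cycling Kupffer-like cells, followed by the LSEC-like class at 46.8 ± 49.6 CPM. Ccl4 averaged 785 ± 405 CPM in other macrophage-like, 625 ± 225 CPM in NK or ILC-like and 600 ± 523 CPM in pDC-like cells. Cxcl2 led in other macrophage-like cells at 532 ± 665 CPM, with classical monocyte-like cells at 164 ± 160 CPM. Cxcl10 led in classical monocyte-like cells at 443 ± 327 CPM, with LSEC-like cells at 141 ± 75.9 CPM. It was among the leading genes of cluster 15 of the monocyte-like class and not of cluster 18, the rest of it. Cluster 15 made up 61.1% and 50% of that class in Exercise and 28.99% and 67.8% in Sedentary. Its part in the Cxcl10 spread was not tested. For Ccl4, Cxcl2 and Cxcl10 the spread between libraries of 1 class was wide, and the leading class cannot be told from the next beyond it.

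**Figure D2:**
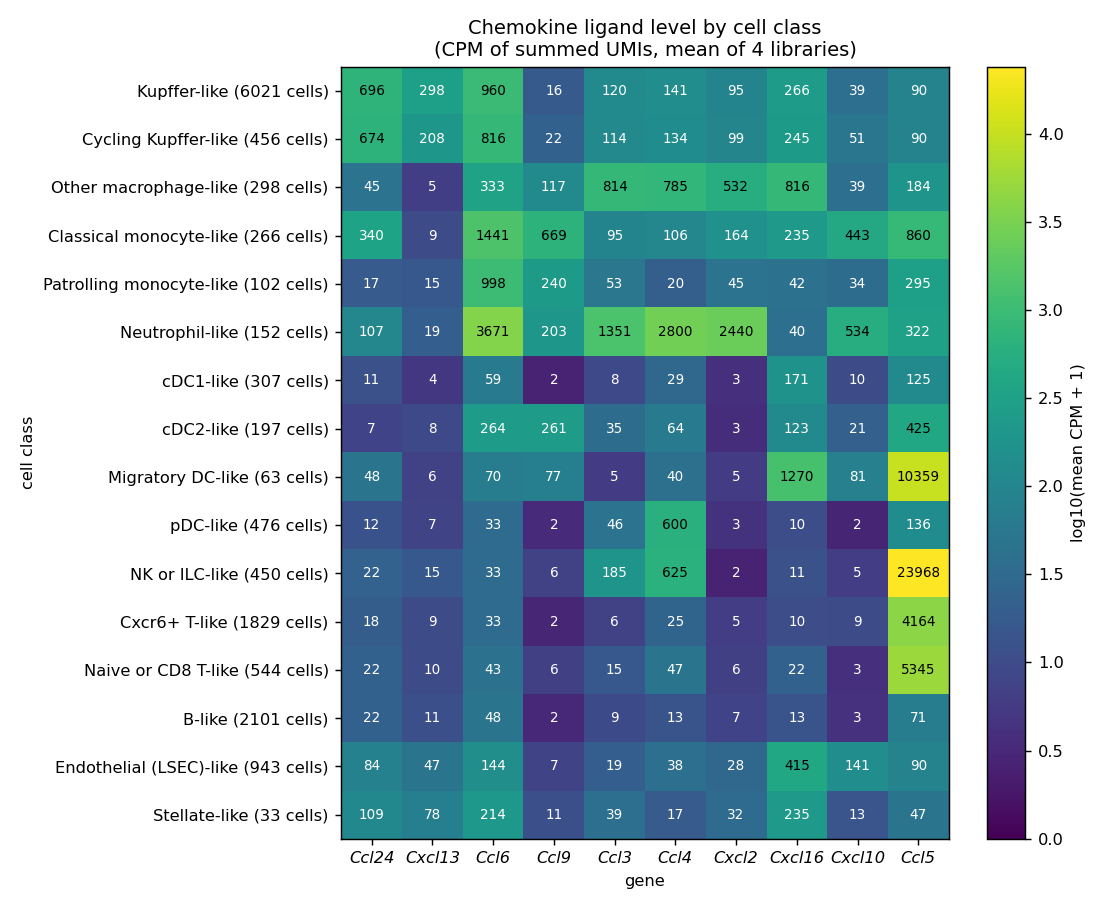
Mean CPM over 4 libraries of the 10 chemokine ligands (x axis) in 16 named cell classes (y axis, with the number of cells); colour is log10(mean CPM + 1) and the number in each cell is the mean CPM. Ccl5 reaches 23968 CPM in NK or ILC-like cells, and the neutrophil-like row is bright for Ccl3, Ccl4, Ccl6 and Cxcl2.

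Classes too small to test were also read. Neutrophil-like cells, 7 and 32 of them in Exercise and 42 and 71 in Sedentary libraries, had 1648 and 3715 CPM of Cxcl2 in Exercise against 2260 and 2138 CPM in Sedentary. Their Ccl6 was 5220 and 2383 CPM in Exercise against 3884 and 3199 CPM in Sedentary. Their Ccl4 of 8608 and 619 CPM in Exercise against 672 and 1300 CPM in Sedentary rested, in Exercise replicate 1, on 94 UMIs in 3 of the 7 cells. Cxcl10 in neutrophil-like cells was 1007 and 826 CPM in Exercise against 56.0 and 247 CPM in Sedentary. Its UMIs lay in 1 and 3 Exercise and 1 and 3 Sedentary cells. Migratory dendritic cell-like cells (63 cells) had 15418 and 10629 CPM of Ccl5 in Exercise against 9058 and 6332 CPM in Sedentary, and 1710 and 1234 CPM of Cxcl16 in Exercise against 991 and 1148 CPM in Sedentary.

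A low level under these values was read from B-like cells, and its source, such as free RNA in droplets, was not tested. Ccl5 had 74.3 and 73.2 CPM in Exercise and 57.5 and 78.2 CPM in Sedentary B-like cells, a class that should lack it, close to the 74.3 and 106 CPM in Exercise and 77.6 and 104 CPM in Sedentary Kupffer-like cells. With each cell thinned to 1000 UMIs, 6.12% and 8.56% of Exercise and 7.68% and 10.1% of Sedentary Kupffer-like cells had a Ccl5 UMI, against 6.69% and 7.31% of Exercise and 5.95% and 6.23% of Sedentary B-like cells. The Ccl5 of Kupffer-like cells was thus near that of B-like cells, with overlapping thinned shares in Exercise and higher ones in Sedentary. Unthinned, the shares in Kupffer-like cells were 17.4% and 23.8% in Exercise and 15.9% and 22.6% in Sedentary. Ccl24 stood clear of its level in B-like cells. Its UMIs were in 42.4% and 46.8% of thinned Exercise and 40.3% and 45.3% of thinned Sedentary Kupffer-like cells. In B-like cells these shares were 2.51% and 2.35% in Exercise and 1.85% and 1.78% in Sedentary. For Ccl3 the lowest thinned share in Kupffer-like cells was 6.67%, while the highest in B-like cells was 1.78%.

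Within the LSEC-like class the Kupffer-type ligands were uneven. Cluster 16 of that class had 271 to 508 CPM of Ccl24 and 16084 to 20253 CPM of summed Kupffer markers. Cluster 4, most of the class, had 10.5 to 36.1 CPM of Ccl24 and 1002 to 1363 CPM of those markers. Cxcl16 went the other way, with 388 to 548 CPM in cluster 4 and 194 to 329 CPM in cluster 16. Transcripts of both cell types in cluster 16 are given as measured, and their source was not tested.

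Some receptors of these ligands were read in the same classes. Cxcr6, the receptor of Cxcl16, was highest of the tested classes in Cxcr6+ T-like cells (921 and 694 CPM in Exercise, 906 and 724 CPM in Sedentary), a class it helped to name. Cxcr5, the receptor of Cxcl13, was highest in B-like cells, with 115 and 105 CPM in Exercise and 113 and 108 CPM in Sedentary. Cxcr3, the receptor of Cxcl10, was highest in Cxcr6+ T-like cells, with 223 and 235 CPM in Exercise and 266 and 182 CPM in Sedentary. Ccr1, a receptor of Ccl3, Ccl5, Ccl6 and Ccl9, averaged 61.4 ± 28.1 CPM in other macrophage-like and 54.8 ± 9.03 CPM in classical monocyte-like cells. In Kupffer-like cells 0 of the 9 receptor genes tested passed edgeR's test between the groups and 0 were called by DESeq2; 1 of 9, Ccr3, had an unadjusted p under 0.05. Ccr3, a low gene named after its values were seen, had 11.4 and 14.9 CPM in Exercise and 3.68 and 5.32 CPM in Sedentary (edgeR adjusted p = 0.149).

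The genes whose level followed each ligand most closely over the 12 tested classes are given as a description, by Pearson's r of mean log2 CPM among 5250 genes, with chemokine ligands left out; the classes share libraries. Ccl5 was closest to Cst7, Batf and Samd3 (r = 0.99, 0.96 and 0.95), all highest in NK or ILC-like cells. Ccl24 was closest to Lpl, Ms4a8a and Susd6 (r = 0.97, 0.97 and 0.96), and Cxcl13 to Cd5l, Kcna2 and Armc8 (r = 0.97, 0.96 and 0.96), all highest in Kupffer-like cells. Ccl9 was closest to Sirpb1b, Sirpb1c and Trps1 (r = 0.98, 0.98 and 0.94) and Ccl6 to Emilin2, Lst1 and Ap1s2 (r = 0.98, 0.97 and 0.97). Cxcl2 was closest to the complement receptor gene C5ar1, Clec4n and Trem2 (r = 0.99, 0.98 and 0.97). Cxcl16 was closest to Phf11d, Acvrl1 and Tmem51 (r = 0.98, 0.96 and 0.96), and Cxcl10 to N4bp1, Mgst1 and Gstm1 (r = 0.95, 0.92 and 0.91). The likeness was weaker for Ccl3, with Lpin2, Fcer1g and Ntpcr (r = 0.89, 0.88 and 0.83). For Ccl4, 2210016F16Rik and Snx17 were among the closest (r = 0.80 and 0.76). Between members the closest pair was Ccl3 and Ccl4 (r = 0.88), then Ccl24 and Cxcl13 (r = 0.84).

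In the GENCODE annotation of GRCm38, 6 of the members lie on chromosome 11 and 4 on chromosome 5. Ccl5, Ccl9, Ccl6, Ccl3 and Ccl4 follow each other between bases 83525778 and 83664683 of chromosome 11, with gaps of 42400, 9245, 54756 and 13228 bases; Ccl4 is on the plus and the other 4 on the minus strand. Cxcl16 lies apart on that chromosome (70453983 to 70459984, minus strand). On chromosome 5 are Cxcl2 (90903871 to 90905938, plus), Cxcl10 (92346638 to 92348889, minus), Cxcl13 (95956951 to 95961068, plus) and Ccl24 (135569937 to 135573049, minus). Among the tested classes, Ccl6 and Ccl9, 9245 bases apart, both led in classical monocyte-like cells. Ccl3 and Ccl4, 13228 bases apart, both had their highest mean in other macrophage-like cells, where that of Ccl4 overlapped other classes. Ccl5 at the end of the row led in NK or ILC-like cells. Neutrophil-like cells, too few to test, had 2930 and 863 CPM of Ccl3 in Exercise and 542 and 1069 CPM in Sedentary. Their Ccl6, at 2383 to 5220 CPM, was above that of classical monocyte-like cells.

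RefSeq promoter windows (GRCm38.p6, 250 bases before to 50 after the start) matched 6 of the 10 members: Ccl3, Ccl6, Ccl9, Cxcl2, Cxcl10 and Cxcl13. The 250 bases before the start of Cxcl2 and Ccl3 are shown because both genes had lower values in the same Exercise libraries. Those of Cxcl10 are shown because its level was high in Kupffer-like cluster 19, described below. Each is written 5′ to 3′ on the gene's strand, with matches to the NF-kB consensus and to an interferon response element-like motif (GAAA, any 2 bases, GAAA) in capitals; overlapping matches run together.
Cxcl2, chr5:90903649-90903898, plus: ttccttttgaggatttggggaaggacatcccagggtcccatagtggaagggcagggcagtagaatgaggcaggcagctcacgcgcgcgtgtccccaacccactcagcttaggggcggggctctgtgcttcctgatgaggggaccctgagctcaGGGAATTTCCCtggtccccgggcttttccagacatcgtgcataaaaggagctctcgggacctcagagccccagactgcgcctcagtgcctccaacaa
Cxcl10, chr5:92348890-92349139, minus: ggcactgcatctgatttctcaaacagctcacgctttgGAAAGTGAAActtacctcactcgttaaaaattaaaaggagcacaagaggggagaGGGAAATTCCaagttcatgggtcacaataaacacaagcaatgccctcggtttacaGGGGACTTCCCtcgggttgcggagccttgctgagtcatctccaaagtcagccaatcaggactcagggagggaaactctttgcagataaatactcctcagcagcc
Ccl3, chr11:83649379-83649628, minus: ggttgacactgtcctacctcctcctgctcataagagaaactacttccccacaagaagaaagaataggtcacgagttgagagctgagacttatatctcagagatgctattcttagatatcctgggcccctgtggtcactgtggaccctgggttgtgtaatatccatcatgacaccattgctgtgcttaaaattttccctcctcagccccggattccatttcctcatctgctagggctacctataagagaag
On both strands, the NF-kB consensus matched 2 overlapping times in the Cxcl2 window, 4 times, 3 of them overlapping, in the Cxcl10 window, and not in these letters of the Ccl3 window. It occurs in 8.46% of the 32851 RefSeq windows of the same length, and in 3 of the 6 member windows, those of Cxcl2, Cxcl10 and Ccl9. The interferon response element-like motif occurs in 3.44% of all windows and in 1 of the 6, that of Cxcl10. TGANTCA, an AP-1 type motif, occurs in 7.81% of windows and in 2 of the 6 (Ccl9 and Cxcl10), and TATAAA in 13.6% and in 2 of the 6 (Ccl9 and Cxcl13). A match describes letters only and is no sign of binding.

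Within the Kupffer-like class, Ccl6 was broad and Cxcl10 was narrow. The 1% of cells with most UMIs of Cxcl10 held 52.4% and 64.0% of its UMIs in Exercise and 55.6% and 63.6% in Sedentary. For Ccl6 that share was 6.37% and 5.87% in Exercise and 5.47% and 7.15% in Sedentary. Single cells weighed on Ccl4: 1 cell of Exercise replicate 2 held 138 of that library's 616 Ccl4 UMIs. In cells thinned to 1000 UMIs, Ccl3 and Ccl4 were found together in 14 and 17 cells of the Exercise and 30 and 41 cells of the Sedentary libraries. That is 2.33 and 1.79 times in Exercise and 2.41 and 1.47 times in Sedentary the number that independent detection would give. Ccl24 and Cxcl13 were found together 0.89 and 0.94 times as often as that in Exercise and 0.95 and 1.015 times in Sedentary, close to the number that independent detection would give.

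The 4 Kupffer-like clusters, found without chemokine ligand genes, differed in their ligands; since clusters group cells by expression, the differences are given as values with no test. Cluster 19 held 23 and 34 Exercise and 21 and 28 Sedentary cells. It was led by Cxcl9, Cxcl10, Gbp5, Cd274 and Gbp2, which are known as interferon-gamma-inducible genes. Irg1, Il1rn, Tlr2, Bcl2a1a and Ccl2 came next. A fixed list of interferon-stimulated genes summed there to 1258 and 1477 CPM in Exercise and 1114 and 1432 CPM in Sedentary. In cluster 2 that sum was 847 to 1291 CPM. Cluster 19 had 393 and 342 CPM of Cxcl10 in Exercise and 488 and 755 CPM in Sedentary, where clusters 0 and 2 had 17.3 to 45.8 CPM over all libraries. It held 207 Cxcl10 UMIs over the 4 libraries, where clusters 0 and 2 held 160 and 319 and cluster 5 held 24. Its Ccl4 was 275 and 1215 CPM in Exercise and 723 and 1157 CPM in Sedentary, and its Cxcl13 was 734 and 1251 CPM in Exercise against 918 and 527 CPM in Sedentary. Cluster 5 was shallower, with a median of 1260 to 1601 UMIs per cell, and low in Ccl3 (23.5 and 21.6 CPM in Exercise, 30.2 and 29.2 CPM in Sedentary) and Cxcl2 (35.2 and 3.60 CPM in Exercise, 15.1 and 34.5 CPM in Sedentary). It was high in Cxcl13, with 651 and 577 CPM in Exercise and 466 and 632 CPM in Sedentary, and in Ccl6, with 1296 and 1452 CPM in Exercise and 1394 and 1272 CPM in Sedentary. Cluster 5 made up 7.76% and 8.50% of Kupffer-like cells in Exercise and 15.9% and 15.7% in Sedentary, so the makeup of the class differed between the libraries of the groups. Without it the log2 changes of the class were -0.92 for Ccl3, -1.10 for Cxcl2, -1.14 for Ccl4, 0.27 for Cxcl13 and -0.0044 for Ccl6. Immediate early genes, fast transcription factor and stress genes that cell isolation is known to induce, summed to 605 to 1083 CPM in cluster 5 and to 3022 to 7918 CPM in clusters 0 and 2. Their part in the lower Ccl3 and Cxcl2 of cluster 5 was not tested.

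**Figure D3:**
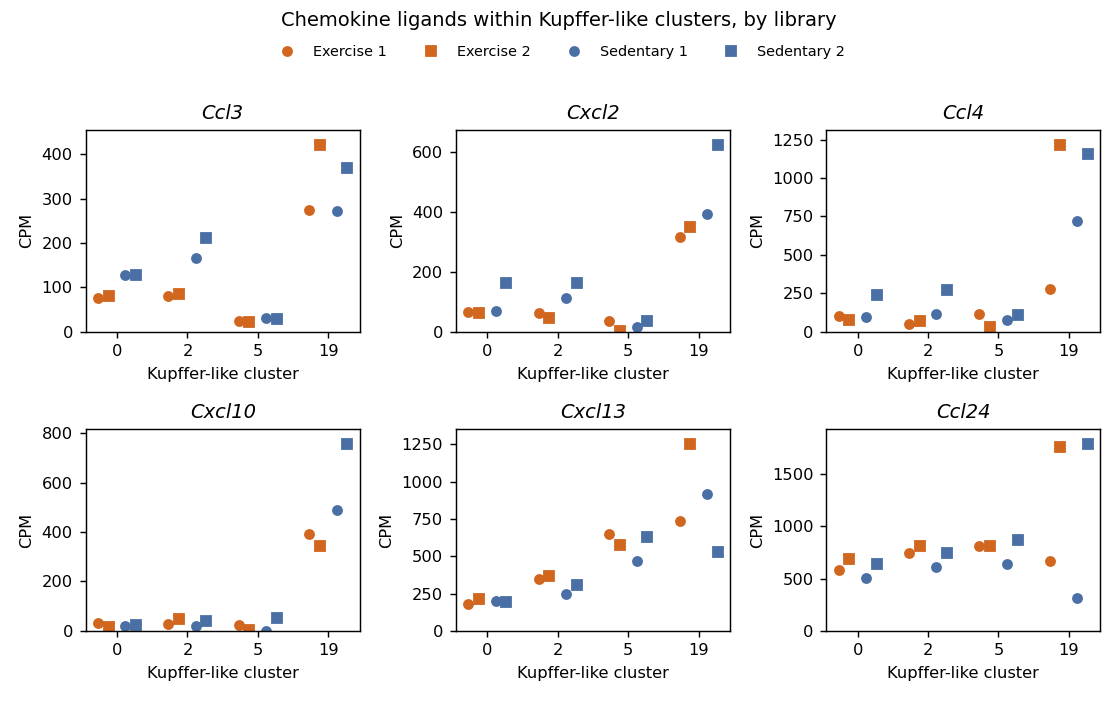
CPM (y axes, linear) of 6 ligands in Kupffer-like clusters 0, 2, 5 and 19 (x axes); each point is 1 library, Exercise in orange and Sedentary in blue. Cxcl10 is high in cluster 19 (342 to 755 CPM), Ccl3 is low in cluster 5, and in clusters 0 and 2 both Exercise points of Ccl3 lie below both Sedentary points.

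The comparison of Exercise with Sedentary asked whether 4 weeks of running altered the ligands of Kupffer cells and their neighbours. In Kupffer-like cells 0 of the 10 genes passed edgeR's quasi-likelihood test at an adjusted p under 0.05; of all 9861 genes tested there 0.284% passed. Ccl3, Ccl4 and Cxcl2 each had lower values in both Exercise libraries than in both Sedentary ones and an unadjusted p under 0.05. Over all genes, 5.34% had such a p and 16.5% had both Exercise libraries below both Sedentary ones. DESeq2 called 2 of the 10, Ccl3 and Cxcl2, both lower in Exercise, where it called 0.582% of the 12031 genes to which it gave an adjusted p. The 7 other members had overlapping groups. Of the 10 log2 changes 8 were negative and 2 positive, with a median of -0.077. All 10 members passed the filter on low counts in this class.

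Ccl3 had 80.3 and 89.7 CPM in the Exercise and 140 and 171 CPM in the Sedentary libraries. The log2 change, exercise minus sedentary, was -0.88 ± 0.14 (SE; edgeR adjusted p = 0.0777; DESeq2 adjusted p = 0.00204). The groups did not overlap in clusters 0 (75.8 and 80.7 CPM in Exercise, 127 and 128 CPM in Sedentary) and 2 (81.4 and 85.4 CPM in Exercise, 166 and 212 CPM in Sedentary), but did in cluster 19 (275 and 421 CPM in Exercise, 274 and 370 CPM in Sedentary). Cxcl2 had 67.1 and 57.7 CPM in Exercise and 92.0 and 164 CPM in Sedentary. Its log2 change was -1.06 ± 0.26 (edgeR adjusted p = 0.357; DESeq2 adjusted p = 0.00984), and it was -0.53 without Sedentary replicate 2, the highest library. Ccl4 had 77.0 and 103 CPM in Exercise and 113 and 272 CPM in Sedentary. Its log2 change of -1.10 ± 0.37 (edgeR adjusted p = 0.798) rested largely on that same Sedentary library, without which it was -0.28.

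Thinned to 1000 UMIs per cell, the shares of Kupffer-like cells with a UMI kept this order. They were 6.67% and 8.12% in Exercise against 10.7% and 12.4% in Sedentary for Ccl3. For Cxcl2 they were 4.78% and 4.83% in Exercise against 6.18% and 10.9% in Sedentary, and for Ccl4 7.06% and 6.42% in Exercise against 8.32% and 15.4% in Sedentary. Sedentary replicate 2 was the highest library for all 3.

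**Figure D4:**
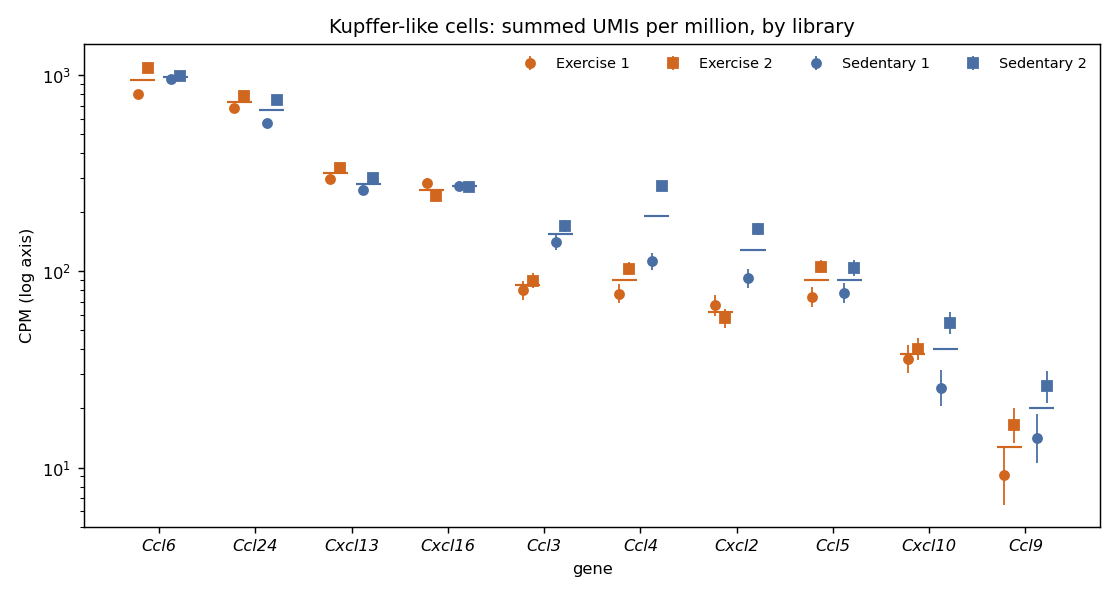
CPM (y axis, log scale) of the 10 ligands (x axis) in Kupffer-like cells, 1 point per library with its exact 95% Poisson interval for counting error; Exercise is in orange, Sedentary in blue, and short lines are group means. Ccl3, Ccl4 and Cxcl2 show both orange points below both blue ones, while the 7 other genes overlap.

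For the 7 other members in Kupffer-like cells the groups overlapped. Ccl24 had 677 and 786 CPM in Exercise and 571 and 750 CPM in Sedentary (log2 change 0.14 ± 0.16). Cxcl13 had 297 and 335 CPM in Exercise and 261 and 299 CPM in Sedentary (0.17 ± 0.13). Ccl6 had 802 and 1087 CPM in Exercise and 958 and 993 CPM in Sedentary (-0.05 ± 0.16). The mean of Ccl24 and of Cxcl13 was higher in Exercise and that of Ccl6 in Sedentary, each within the overlap of the libraries. Cxcl16 had 282 and 241 CPM in Exercise and 272 and 269 CPM in Sedentary (-0.06 ± 0.11). Cxcl10 had 35.9 and 40.0 CPM in Exercise and 25.5 and 54.6 CPM in Sedentary (-0.10 ± 0.31). Ccl9, on 297 UMIs, had 9.16 and 16.4 CPM in Exercise and 14.2 and 25.9 CPM in Sedentary (-0.63 ± 0.36). Ccl5, near its level in B-like cells, gave -0.01 ± 0.21. The adjusted p of these 7 genes was 0.952 or higher (edgeR).

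Other transcripts moved with Ccl3, Ccl4 and Cxcl2. Immediate early genes summed to 3396 and 3465 CPM in Exercise and 4288 and 6385 CPM in Sedentary Kupffer-like cells. Of these genes 14 of 14 had a negative log2 change and 10 an unadjusted p under 0.05, with a median of -0.54; 0 passed edgeR's test and 1, Egr1, was called by DESeq2. Of 12 NF-kB targets and cytokines 10 had a negative log2 change, and 1 passed edgeR's test. It was Tnfaip3, whose product restrains NF-kB signalling, which fell to 18.6 and 22.1 CPM in Exercise, against 49.5 and 68.0 CPM in Sedentary (log2 change -1.53, edgeR adjusted p = 0.0364). DESeq2 called 3 of that list lower, Tnfaip3 and the NF-kB inhibitor genes Nfkbia and Nfkbiz. Of 10 interferon-stimulated genes 5 had a positive and 5 a negative log2 change; 0 passed edgeR's test, 0 had an unadjusted p under 0.05 and DESeq2 called 0. The median log2 change of all genes tested was 6.9e-05.

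Hepatocyte and erythroid transcripts in Kupffer-like cells differed between the groups as well, and their source was not tested. The 9 hepatocyte markers summed to 150 and 112 CPM in Exercise and 1402 and 676 CPM in Sedentary Kupffer-like cells; 9 of 9 had a negative log2 change and 8 fell by edgeR's test. Erythroid markers summed to 97.1 and 298 CPM in Exercise and 2650 and 856 CPM in Sedentary, and 0 of 4 tested passed edgeR's test, where 4 had an unadjusted p under 0.05 and DESeq2 called 1, Hba-a2, lower. Among cells without a UMI of the hepatocyte markers (842 and 1332 Exercise, 177 and 338 Sedentary cells) the log2 changes were -0.66 for Ccl3, -0.82 for Cxcl2 and -0.86 for Ccl4, and 0 of these passed. The class had 1275 and 1823 Exercise and 1469 and 1454 Sedentary cells, so a smaller part of the Sedentary cells was left. The cells left were not matched for depth or cluster between the groups. The part of hepatocyte and erythroid transcripts and of transcription induced by isolation in the values of the 3 ligands was not tested further.

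Over the 12 tested classes, 76 of the 120 pairs of a member and a class passed the filter on low counts, and 0 of them passed edgeR's test, where 0.122% of all 62298 gene and class pairs did. An unadjusted p under 0.05 was found for 18 of the 76 pairs (23.7%, against 5.18% of all pairs), 15 of them with a negative change, and DESeq2 called 2, both in Kupffer-like cells. Both Exercise libraries lay below both Sedentary ones in 16 pairs (21.1%, against 15.2% of all pairs) and above them in 6 pairs (7.89%, against 18.8% of all pairs). Of the 18 pairs, 4 were in other macrophage-like, 3 each in Kupffer-like and LSEC-like, 2 each in cycling Kupffer-like, NK or ILC-like and cDC2-like, and 1 each in pDC-like and Cxcr6+ T-like cells. The classes come from the same 4 libraries and are not independent of each other.

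In other macrophage-like cells, the tested class with the highest mean of Ccl3, Ccl4 and Cxcl2, both Exercise libraries had lower values than both Sedentary ones for all 3. An unadjusted p under 0.05 was found for 4 of 8 members tested there, against 6.22% of all genes. Cxcl2 had 95.6 and 214 CPM in Exercise and 297 and 1523 CPM in Sedentary (log2 change -2.49 ± 0.64, edgeR adjusted p = 0.365), and it was found in 7.02% and 18% of Exercise and 18.8% and 50% of Sedentary cells. Ccl3 had 495 and 489 CPM in Exercise and 741 and 1532 CPM in Sedentary (-1.22 ± 0.30, adjusted p = 0.358). Ccl4 had 585 and 513 CPM in Exercise and 656 and 1385 CPM in Sedentary (-0.91 ± 0.31, adjusted p = 0.653). The Sedentary values of all 3 were far apart, and without Sedentary replicate 2 the changes were -0.85 for Cxcl2, -0.59 for Ccl3 and -0.26 for Ccl4. The fourth gene, Ccl5, named after its values were seen, had 61.8 and 123 CPM in Exercise and 72.9 and 479 CPM in Sedentary, overlapping groups (-1.53 ± 0.66, adjusted p = 0.786). Immediate early genes summed to 3958 and 4384 CPM in Exercise and 6744 and 11112 CPM in Sedentary cells of this class, with 12 of 12 tested genes negative; their part was not tested.

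Ccl4 had a negative change in 11 of the 11 classes where it was tested, and an unadjusted p under 0.05 in 6 of them. Cycling Kupffer-like cells had 100 and 84.9 CPM in Exercise and 152 and 199 CPM in Sedentary (log2 change -0.98 ± 0.23, edgeR adjusted p = 0.267), and NK or ILC-like cells 431 and 509 CPM in Exercise and 618 and 941 CPM in Sedentary (-0.75 ± 0.19, adjusted p = 0.209). In both classes the groups stood apart; 3.96% of all genes in cycling Kupffer-like and 5.44% in NK or ILC-like cells had an unadjusted p under 0.05. Cxcr6+ T-like cells had 18.2 and 17.5 CPM in Exercise and 32.1 and 32.1 CPM in Sedentary (-0.89 ± 0.24, adjusted p = 0.459; 6.11% of all genes there had an unadjusted p under 0.05), a level near the 12.8 ± 6.16 CPM of B-like cells. The 32 UMIs of Sedentary replicate 1 lay in 5 cells, and thinned shares of these cells with a UMI overlapped, at 0.452% and 0.960% in Exercise and 0.758% and 2.79% in Sedentary. In pDC-like cells, with 5.01% of all genes at such a p, the groups overlapped, with 83.8 and 589 CPM in Exercise and 408 and 1319 CPM in Sedentary (-1.32 ± 0.53, adjusted p = 0.974); the change was -3.42 without Exercise replicate 2 and -0.20 without Sedentary replicate 2. There a single cell held 295 of the 503 Ccl4 UMIs of Exercise replicate 2, while cells with a Ccl4 UMI made up 8.16% and 18.6% of Exercise and 29.9% and 50.9% of Sedentary pDC-like cells, unthinned. Cxcl2 in cycling Kupffer-like cells had 66.7 and 67.6 CPM in Exercise and 127 and 133 CPM in Sedentary (-0.95 ± 0.26, adjusted p = 0.441).

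Elsewhere the members with the smallest p pointed both ways. In LSEC-like cells Ccl3 had 14.1 and 11.02 CPM in Exercise and 21.9 and 30.7 CPM in Sedentary (log2 change -1.15 ± 0.48), while Ccl6 (-0.61 ± 0.25) and Cxcl10 (-0.73 ± 0.32) had overlapping groups, all at an edgeR adjusted p of 0.959; 4.90% of all genes there had an unadjusted p under 0.05. Within this class Ccl3 stood higher in cluster 16, with 29.9 and 40.8 CPM in Exercise and 64.6 and 119 CPM in Sedentary, against 11.2 and 7.67 CPM in Exercise and 13.2 and 2.25 CPM in Sedentary in cluster 4. Cluster 16 made up 12.8% and 10.3% of the class in Exercise and 15.1% and 19.5% in Sedentary, and its part in the class value was not tested. The Ccl3 of LSEC-like cells rested on 42 UMIs. In B-like cells Ccl3 had the same order, with 5.61 and 5.23 CPM in Exercise and 7.56 and 16.7 CPM in Sedentary. In cDC2-like cells Ccl5 had 711 and 549 CPM in Exercise and 344 and 97.4 CPM in Sedentary (1.51 ± 0.36, adjusted p = 0.590). Ccl6 there had 325 and 338 CPM in Exercise and 169 and 225 CPM in Sedentary (0.76 ± 0.21, adjusted p = 0.646), where 5.60% of all genes had an unadjusted p under 0.05. NK or ILC-like cells, the leading source of Ccl5, had 25574 and 25307 CPM in Exercise and 21256 and 23736 CPM in Sedentary, a small difference with groups apart (0.15 ± 0.07, adjusted p = 0.841). In the 4 remaining classes 0 members had an unadjusted p under 0.05. Their smallest p belonged to Ccl24 in classical monocyte-like (-1.90 ± 0.96) and B-like cells (0.32 ± 0.32), Ccl5 in cDC1-like cells (-0.81 ± 0.45) and Ccl4 in naive or CD8 T-like cells (-0.68 ± 0.46).

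**Figure D5:**
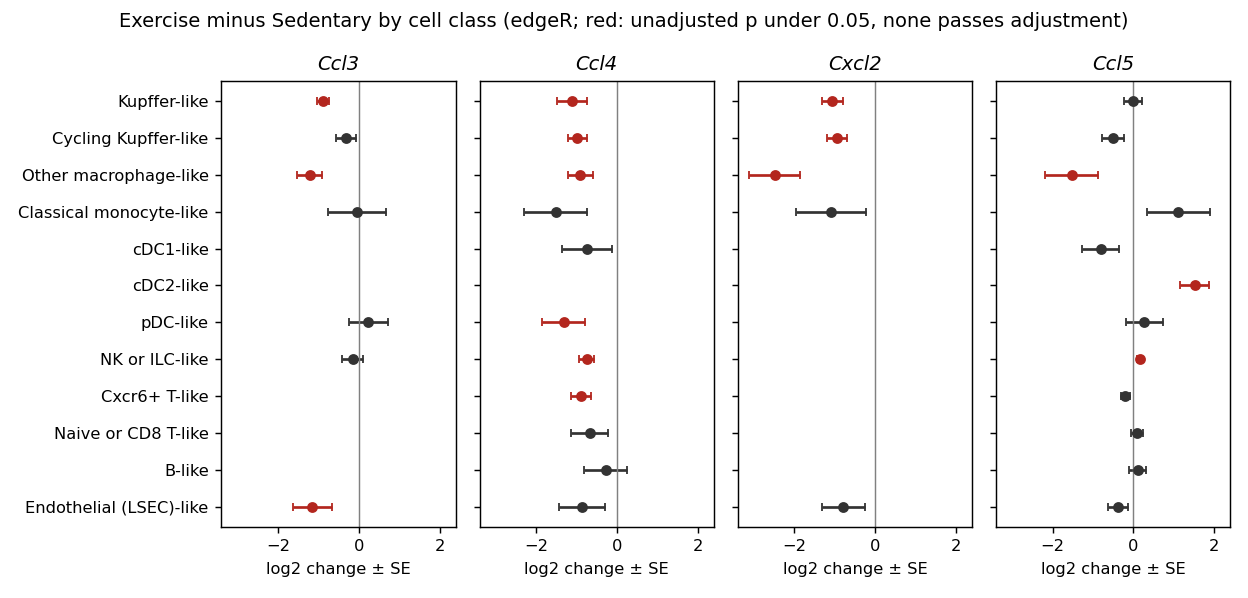
Log2 change, Exercise minus Sedentary, with its SE (x axes) of Ccl3, Ccl4, Cxcl2 and Ccl5 in the tested classes (y axis) where the gene passed the filter on low counts; red marks an unadjusted p under 0.05 and no point passes adjustment. Points of Ccl4 (11 classes) and Cxcl2 (5 classes) all lie left of 0, while those of Ccl5 lie on both sides.

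Whether a member's change in a class differed from its change in Kupffer-like cells was tested directly for all 10 members in the 11 other classes (edgeR, class by exercise interaction with the library as a block). Of 110 such tests 66 were of a member that had passed the filter on low counts in the class itself. Of these, 4 passed at an adjusted p under 0.05, where 0.0803% of all gene and class pairs did. That share covers a wider set, with genes that passed the filter only through their counts in Kupffer-like cells. A call for Cxcl10 in cDC2-like cells is left out, since Cxcl10 passed the filter only through its counts in Kupffer-like cells. The 4 were Cxcl2 (-1.22, adjusted p = 0.00214) and Ccl5 (-1.46, adjusted p = 0.00282) in other macrophage-like cells, Ccl5 (1.49, adjusted p = 2.77e-08) in cDC2-like cells, and Ccl24 (-2.20, adjusted p = 0.000595) in classical monocyte-like cells. In these fits 0.102%, 0.125% and 0.127% of all genes passed for other macrophage-like, cDC2-like and classical monocyte-like cells. For Ccl5 in other macrophage-like and cDC2-like cells and Ccl24 in classical monocyte-like cells, 1 cell held most of the gene's UMIs in at least 1 library. In both Ccl5 cases the Kupffer-like values lay near those of B-like cells. Leaving out 1 library ended each of the 4 calls: without Sedentary replicate 2 the differences were -0.23 for Cxcl2, 0.20 for Ccl5 in other macrophage-like and 0.66 for Ccl5 in cDC2-like cells, and without Exercise replicate 2 that of Ccl24 was -0.86. For Ccl3 and Ccl4 no class differed from Kupffer-like cells by this test, which does not show that the change was alike.

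The other chemokine ligands were read for comparison, and 24 of them were listed. Xcl1, a ligand of Xcr1, was highest in NK or ILC-like cells (1344 and 1438 CPM in Exercise, 1065 and 1226 CPM in Sedentary). Pf4 was highest in other macrophage-like cells (478 and 363 CPM in Exercise, 275 and 502 CPM in Sedentary), as were Cxcl14, Ccl7 and Ccl12. Interferon-gamma-inducible Cxcl9 was highest in classical monocyte-like cells, where its libraries were far apart, with 828 and 171 CPM in Exercise and 129 and 581 CPM in Sedentary. Like Cxcl10, it was among the leading genes of cluster 15 of that class and not of cluster 18. In Kupffer-like cells 11 of these ligands were tested. Of them 0 passed edgeR's test and DESeq2 called 0, 3 had a positive and 8 a negative log2 change, with a median of -0.26, and 3 had an unadjusted p under 0.05. The monocyte attractant Ccl7 had 26.5 and 41.2 CPM in Exercise and 58.6 and 74.7 CPM in Sedentary, and Ccl2, another, had 93.9 and 115 CPM in Exercise and 129 and 162 CPM in Sedentary. The neutrophil attractant Cxcl1, a low gene named after its values were seen, had 4.71 and 1.68 CPM in Exercise and 5.66 and 9.71 CPM in Sedentary.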

How the data were processed

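Hepatic CD45+ cells of 2 Exercise and 2 Sedentary samples were profiled with a 10x Genomics 3′ kit, per the labels' protocols. The authors deposited raw UMI counts for every gene in every barcode. Cell Ranger, with no version stated, Seurat 3.1 and mm10 (GRCm38) are named in the submitters' processing notes. The series text names a pre-mRNA reference, so intronic reads may be counted; use of strand in counting is unknown here.

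Barcodes needed 500 UMIs, 200 genes and no more than 20% mitochondrial UMIs. Doublets were called within each library from the share of simulated doublets (2 per cell) among 30 neighbours, at 0.8% per 1000 cells, which removed 460. Kept cells had a median of 2722 and 2846 UMIs in Exercise and 2028 and 2388 in Sedentary libraries. Counts were scaled to 10000 per cell and logged. The 2000 most variable genes without chemokine ligands, centred per library (chosen after seeing the data), 30 principal components and 20 neighbours went into Leiden clustering (resolution 1, seed 1; Python 3.11.15, scikit-learn 1.9.0, leidenalg 0.10.2). Names for the 32 clusters came from marker lists, by hand. Summed counts were tested with edgeR 4.0.16 (R 4.3.3): TMM, filterByExpr, quasi-likelihood F-test, Benjamini-Hochberg over all genes of a class at 0.05. DESeq2 1.42.0 was an alternative, as were no filter, other cell filters and resolution, replicates left out, a replicate block and cells without hepatocyte UMIs. Intervals cover counting error only. Counts were also simulated with 1 common dispersion per class, 0.0135 for Kupffer-like and 0.0215 for other macrophage-like cells. For Kupffer-like cells (9861 genes), 74 of 100 genes changed 2-fold and 98 of 100 changed 4-fold were recovered, with 10 false calls. For other macrophage-like cells (2636 genes) these were 41, 90 and 6. Recovery with a separate dispersion for each gene was not tested.

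The members and lists were chosen with earlier results of these data known. Named were all members in Kupffer-like cells, the members with the smallest p (up to 3) in other classes, other ligands and receptors with a mean of at least 20 CPM in a tested class, context genes past the test, and the 3 genes most like each member (prior count 2, at least 50 CPM in 1 class). A withheld item is not reported here.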

Additional observations from a re-analysis of the deposited data

Results flagged for a closer look

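The change of members in 4 cases between Exercise and Sedentary differed between a class and Kupffer-like cells in edgeR's test of the class by exercise interaction, which is why these are listed. The values are the change in the class minus the change in Kupffer-like cells, on the log2 scale. For Ccl5 the Kupffer-like values lay near those of B-like cells. Cxcl2 in other macrophage-like cells differed by -1.22 (adjusted p = 0.00214), and by -2.19 to -0.23 without 1 library at a time; it no longer passed without Exercise replicate 1 (-0.77) or Sedentary replicate 2 (-0.23). Ccl5 in the same class differed by -1.46 (adjusted p = 0.00282), and 1 cell of Sedentary replicate 2 held 84 of that library's 108 Ccl5 UMIs there; it no longer passed without Exercise replicate 1 (-1.32), Exercise replicate 2 (-1.85) or Sedentary replicate 2 (0.20). Ccl24 in classical monocyte-like cells differed by -2.20 (adjusted p = 0.000595). Its UMIs numbered 58 and 8 in Exercise and 66 and 294 in Sedentary, and 1 cell held 40 of the 58 in Exercise replicate 1, 58 of the 66 in Sedentary replicate 1 and 109 of the 294 in Sedentary replicate 2. Without 1 library at a time the difference ran from -4.76 to -0.86, and it no longer passed without Exercise replicate 2 (-0.86). Cluster 15, 1 of the 2 clusters of that class, made up 61.1% and 50% of its cells in Exercise and 28.99% and 67.8% in Sedentary.

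Ccl5 in cDC2-like cells differed by 1.49 (adjusted p = 2.77e-08), with 1 cell holding 98 of 162 UMIs in Exercise replicate 1 and 67 of 96 in Sedentary replicate 1. Without 1 library at a time it ran from 0.66 to 2.89, and it no longer passed without Sedentary replicate 2 (0.66). The part of single cells in these differences was not tested.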

How the results depend on the processing

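The count of members called in Kupffer-like cells by edgeR was 0. It was 2 with DESeq2, 3 without the filter on low counts, 3 with the replicate block and 1 without cluster 19, an alternative chosen after seeing the data; without 1 replicate at a time it ran from 0 to 3. Over all tested classes the count was 0, against 2 with DESeq2, 15 without the filter, 10 with the replicate block and 1 among cells without hepatocyte UMIs (Ccl5 in cDC2-like cells), and 1 to 16 without 1 replicate at a time. The interaction calls over all 110 tests, 5 in all with Cxcl10 in cDC2-like cells, ran from 3 to 8 without 1 replicate. Members with a leading class apart from the others, 5 in all, numbered 7 among cells without hepatocyte UMIs, where 9 classes were left, and 5 to 7 without 1 replicate. The labels do not pair the replicate numbers, and same-numbered libraries deviated together with r from -0.17 (classical monocyte-like) to 0.18 (Kupffer-like), so the block is no more than an alternative; it took the genes called in Kupffer-like cells to 178, against 28 without it. A crossed replicate block in classical monocyte-like cells called 0 genes, as did the other 2 fits there. Some changes reversed sign: Ccl5 in Kupffer-like cells (0.000198 without the filter, 0.042 without cluster 5), Cxcl10 in Kupffer-like cells (0.20 without cluster 19), Ccl6 in LSEC-like cells (0.25 without hepatocyte UMIs) and Ccl4 in naive or CD8 T-like cells (0.039 with a stricter cell filter). Without 1 replicate at a time, Kupffer-like changes ran from -0.31 to 0.26 for Ccl5, -0.30 to 0.18 for Ccl6, -0.065 to 0.39 for Ccl24, -0.55 to 0.62 for Cxcl10 and -0.15 to 0.037 for Cxcl16. Those of Cxcl10 in LSEC-like cells ran from -1.25 to 0.20, Ccl4 in naive or CD8 T-like cells from -1.42 to 0.63, Ccl5 in cDC1-like cells from -2.03 to 0.90, and the interaction of Ccl5 in other macrophage-like cells from -2.11 to 0.20. The cause was not tested in any of these. Of the values other than the counts above, 444 kept direction and side of the threshold. Another 44 passed it where the main fit did not, and 8 no longer passed. A further 16 reversed sign, and 10 shares of cells moved with thinning. With 2 libraries a group and fewer than 100 cells a library in several classes, depth limits the small classes most.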

Other observations

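Outside the 10 members, a chemokine or receptor gene passed edgeR's test in 3 places over the tested classes. DESeq2 called none of the 3. In cDC1-like cells it called 0 of the 14 other ligands and 0 of the 15 receptors given an adjusted p. In cycling Kupffer-like cells it called 0 of 15 other ligands. Ccl17, a ligand of Ccr4, rose in cDC1-like cells, with 444 and 99.7 CPM in Exercise against 15.9 and 49.3 CPM in Sedentary (log2 change 2.97 ± 0.48, edgeR adjusted p = 0.00896). Its UMIs lay in 8 and 4 Exercise and 3 and 6 Sedentary cells, and 1 cell of Exercise replicate 1 held 127 of 279. Ccr7, which guides dendritic cells to lymph nodes, fell there (edgeR adjusted p = 0.00896). It had 1.59 and 0 CPM in Exercise against 24.7 and 35.7 CPM in Sedentary. Cluster 26 made up 7.46% and 5.71% of cDC1-like cells in Exercise and 19.8% and 18.99% in Sedentary. Its part in the Ccl17 and Ccr7 values was not tested. In cycling Kupffer-like cells Ccl7 fell to 25.9 and 37.1 CPM in Exercise, against 90.1 and 121 CPM in Sedentary (-1.67 ± 0.32, edgeR adjusted p = 0.0464), on 7 and 28 UMIs in Exercise against 22 and 50 in Sedentary.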
